A study of Mus musculus with 6 samples.

Results

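A set of 23 genes was read at a low level in wild-type (WT) thymocytes and was at or near no reads in thymocytes of Tcf7 knockout (KO) mice. They were chosen from the measured values by a rule on CPM (a gene's count divided by the library's total count, times 1000000). A gene had to reach 5 CPM in each of 4 WT libraries and stay under 0.3 CPM in both KO libraries. Of 26332 genes in the count table, 9872 reached 5 CPM in every WT library and 27 of those passed the KO limit. The rule sets aside gene families by the start of their symbols, which removed 4 (Hoxa7, Ltbr, Fosb and Arhgap32) and left 23. The low KO values are therefore what defined the genes, and they are given here as a description without a test.

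The cells were double negative 3 (DN3) thymocytes, at the stage when β chains of the T-cell receptor are rearranged, from C57BL/6 mice that were WT at Tcf7 or carried a Tcf7 knockout. Each library came from 1 mouse. Male mice gave WT 4 and KO 1, and females the other 4 libraries. The sort kept cells with CD25 and without CD44, CD3, TCRβ, CD8, NK1.1 or binding of a CD1d tetramer. The labels give neither the ages of the mice nor which stretch of Tcf7 had been removed, and they name no Cre driver. Tcf7 encodes TCF-1, a transcription factor of the TCF/LEF family that binds DNA through a high-mobility-group domain. It acts both as an activator and, with Groucho co-repressors, as a repressor, and β-catenin or its relative plakoglobin can bind its amino-terminal end. In the thymus it is induced by Notch signalling in the earliest progenitors and is required for T-lineage commitment.

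The WT libraries held 23711513 to 41666797 counts, KO 1 held 19589938 and KO 2 held 13673860. WT libraries held 15788 to 16013 genes with a count against 13294 in KO 1 and 14384 in KO 2. Reads from Tcf7 itself (chromosome 11) were still present in KO, at 1130 and 1001 CPM against 2113 to 2312 CPM in WT, a log2 fold change of -1.05 (SE 0.0857, adjusted p = 0.00127, edgeR quasi-likelihood test with Benjamini-Hochberg adjustment). A count per whole gene cannot show whether those reads come from outside a deleted stretch. Summed over 10 DN3 markers, all of them read in every library, the level was 13722 to 14778 CPM in WT mice and 9663 and 9914 CPM in KO. Of the 10, 6 were called lower, where 16.5% of all genes tested were. The call of Lck was lost without WT 1, 2 or 3 (adjusted p 0.112 to 0.134, edgeR). The sums hide markers that split between the KO libraries. Rag1 was at 1490 to 1913 CPM in WT mice and at 520 and 1914 CPM in KO. Rag2 was at 91.6 to 103.5 CPM in WT mice and at 32.6 and 112 CPM in KO. The 2 KO libraries differed from each other: 99 of the 9872 WT-expressed genes were under 0.3 CPM in KO 1 and 40 were in KO 2. These are bulk samples, in which fewer cells of one kind and less RNA per cell cannot be told apart.

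Across the 23 genes, WT libraries held 23902 counts and KO libraries 27. KO 1 supplied 5 of the 27 and KO 2 supplied 22. No count was seen in either KO library for 15 genes. Among those 15 were Btbd3, Sytl4, Fnbp1l, Epb41l4a, Ptgs2, Gm10384, Ak4, Afap1l1, Ltbp3, Olfr1507, Gab2, Msantd3, Fam135a and Uchl1. Taking 3 counts over both KO libraries as the most that an absence allows, the KO level of the 15 was at least 61.5-fold to at least 171-fold lower than WT. The other 8 kept between 1 and 8 KO counts. Such bounds and the intervals given further on reflect counting error alone, because reads copied by amplification do not each stand for a molecule.

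The 23 genes were low even in WT. Their WT means ran from 5.58 to 15.6 CPM with a median of 7.15, where the median of all 9872 WT-expressed genes was 49.1 CPM. Per kilobase of gene the median was 2.70 RPKM (CPM per 1000 bases of gene length) against 18.3 RPKM for those genes. The coefficient of variation over 4 WT libraries had a median of 8.75% and ran from 1.65% (Slc36a4) to 21.4% (Gab2). Because the rule set a minimum for every WT library, it left out genes of this level that dip in any of them. The coefficient for other genes is not given here, so steadiness cannot be called particular to the 23. The male WT 4 was the highest WT library for 7 of the 23 and the lowest for 4. The genes lay on 14 chromosomes, and 21 were protein coding.

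**Figure D1:**
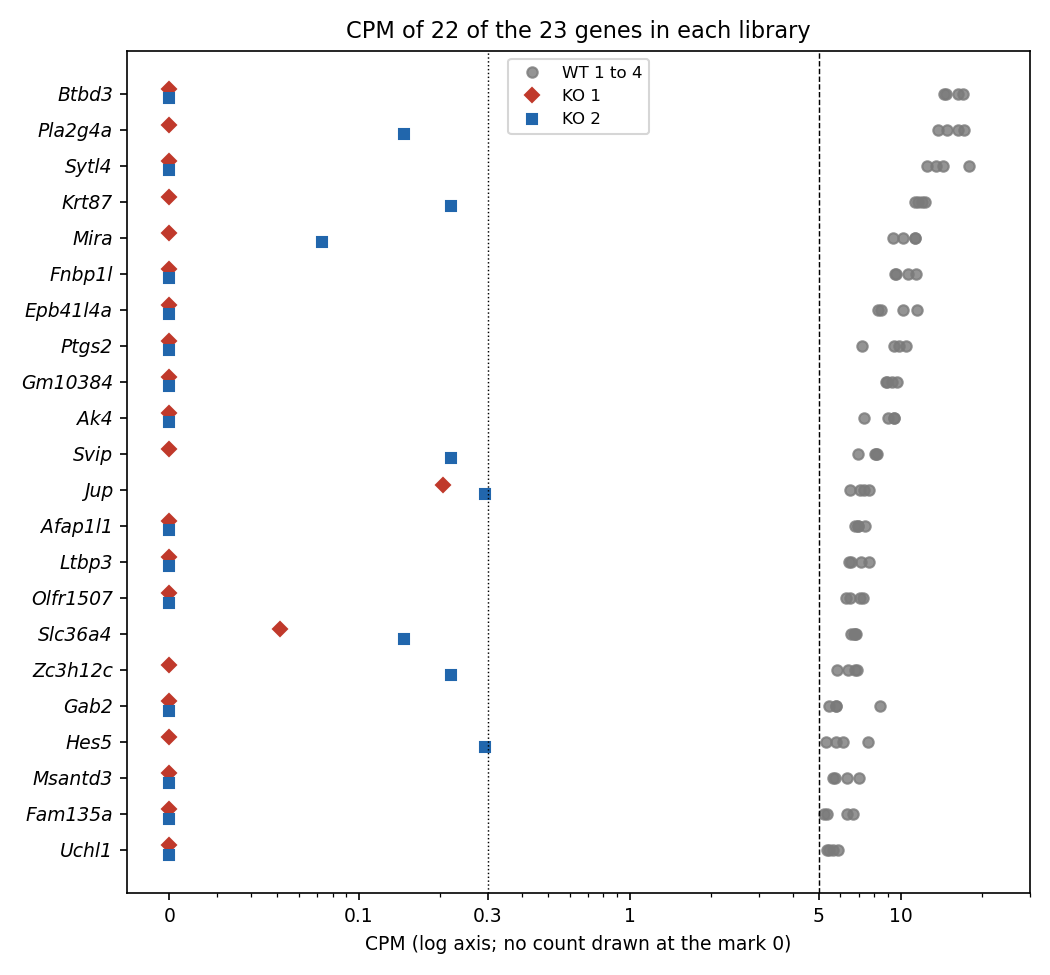
CPM of 22 of the 23 genes (rows, in order of WT mean) in each library on a log axis, with grey circles for WT 1 to 4, red diamonds for KO 1 and blue squares for KO 2; points without a count are drawn at the mark 0, and the dashed and dotted lines are the limits of 5 and 0.3 CPM. The WT points of each gene lie close together to the right of 5 CPM, 20 of the genes shown have KO 1 at 0, and 14 have KO 2 at 0.

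The edgeR test called all 23 lower, but that contrast is the one the rule used. Over all 13294 genes tested it called 30.7% in either direction, 16.5% lower and 14.1% higher. All 23 passed the filter on low counts through their WT values alone. limma-voom with weights per genotype, which called 3.86% of genes lower, called 4 of the 23 (Btbd3, Sytl4, Gm10384 and Ak4). The mirror rule (5 CPM or more in both KO libraries and under 0.3 CPM in every WT library) found 19 genes, from a pool of 12660 genes under 0.3 CPM in every WT library. On the KO libraries singly, the rule would have taken 94 genes from KO 1 alone and 36 from KO 2 alone.

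**Figure D2:**
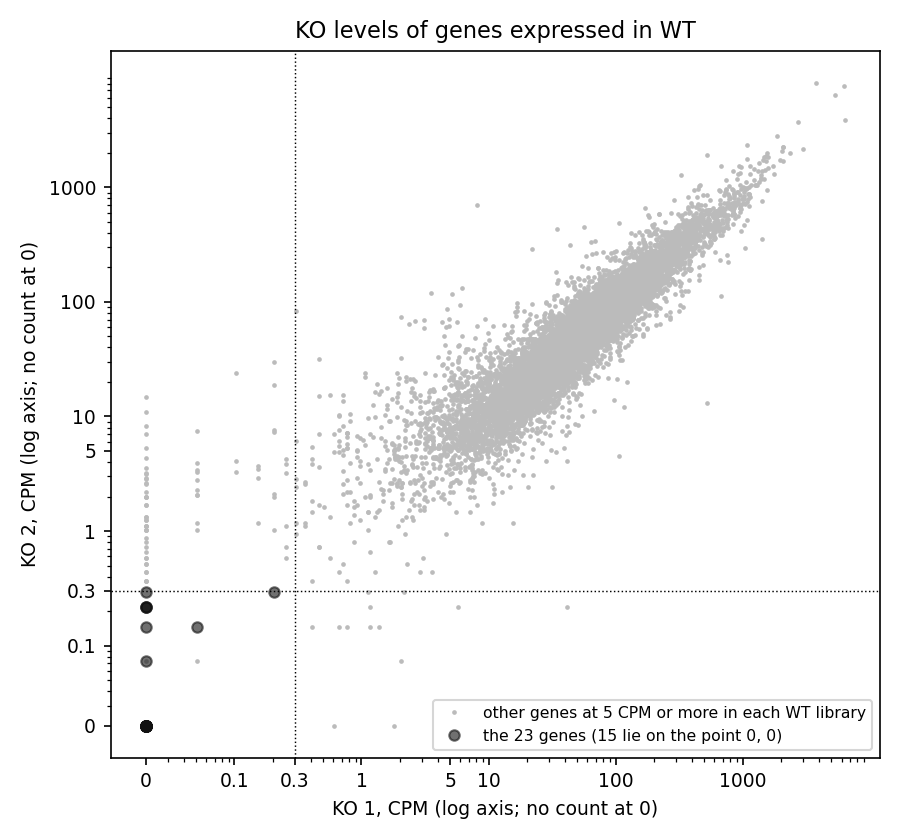
CPM in KO 1 (horizontal) and KO 2 (vertical), both on log axes with no count drawn at 0, of the 9872 genes at 5 CPM or more in every WT library; dark circles are the 23 genes and dotted lines mark 0.3 CPM. Most genes fall along the diagonal, 15 of the 23 share the point without a count in either library, and the left edge holds more genes than the bottom edge; 4 grey points inside both limits are the genes dropped by symbol.

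The limits cut through a gradual tail. Just inside the KO limit stood Jup and Hes5, each at 0.293 CPM in KO 2, followed by Krt87 and Svip at 0.219 CPM. Just outside it were Wwc2, Rapgef5 and Klf4, each at 0.366 CPM in KO 2 and without a count in KO 1, and Plekhg5 at 0.408 CPM in KO 1. At these depths 0.3 CPM equals 5.88 counts in KO 1 and 4.102 in KO 2, so 1 count separates the last gene inside from the first outside. On the WT side members near the limit were Fam135a (lowest WT library 5.23 CPM), Hes5 (5.33) and Uchl1 (5.38). Ccl4 (4.83), Slc8a1 (4.61), Slc27a2 (4.39) and Gucy2e (4.37) fell just short.

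Of the 23 genes, 7 encode proteins of membranes, junctions and the cytoskeleton. Btbd3, a BTB-domain protein best known for orienting dendrites of neurons, lies on chromosome 2 (138256584 to 138287424). It was read at 14.4, 16.2, 17.0 and 14.7 CPM in WT 1 to 4 (mean 15.6 ± 1.25, SD, n = 4) and had no count in either KO library, at least 171-fold lower. Sytl4 (chromosome X, 133936385 to 133981821) encodes granuphilin, a Rab27 effector that docks secretory granules at the plasma membrane. It stood at 14.4, 12.5, 13.5 and 18.0 CPM in WT mice and at no count in KO, at least 163-fold lower. The rule required both genes to reach 5 CPM in every WT mouse, and Sytl4 was highest in the male WT 4. Fnbp1l (chromosome 3, 122538719 to 122619714) encodes TOCA-1, an F-BAR protein that links CDC42 and curved membrane to actin assembly. Its WT levels were 10.7, 9.62, 11.4 and 9.51 CPM and it had no KO count. Epb41l4a (chromosome 18, 33796327 to 34007484), a FERM-domain protein of the band 4.1 family, was read at 10.2, 11.5, 8.26 and 8.44 CPM in WT mice and at none in KO.

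Afap1l1 (chromosome 18, 61730262 to 61786662), an adaptor that binds actin filaments, gave 6.96, 6.79, 7.38 and 6.95 CPM in WT mice and no KO count. Jup (chromosome 11, 100368856 to 100397839) encodes plakoglobin, or γ-catenin, a junction protein closely related to β-catenin. It was read at 7.08, 6.54, 7.65 and 7.34 CPM in WT mice and kept 0.204 CPM in KO 1 and 0.293 CPM in KO 2, from 4 counts each. WT exceeded KO 29.8-fold for Jup (exact 95% interval 15.03 to 69.2), and no other of the 23 had as many KO counts. Krt87 (chromosome 15, 101431490 to 101438804), a gene of the hair keratin cluster, stood at 11.6, 12.3, 11.3 and 12.0 CPM in WT mice, at no count in KO 1 and at 0.219 CPM in KO 2. Other keratin genes within 100 kb of it held at most 11 counts over all 6 libraries, the most being in Krt81. The rule itself keeps both KO libraries under the WT range in these 7 genes.

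Relatives of these proteins, taken from lists of their families, did not share one direction. Among Sytl4's companions in Rab27-dependent secretion, 3 of 13 tested were called lower and 2 higher, and 2 of the lower calls (Sytl1 and Sytl3) and none of the higher ones held in each fit that left out 1 library. Sytl1 went from 130 to 176 CPM in WT mice to 41.5 and 60.6 CPM in KO (log2 fold change -1.50, SE 0.219, adjusted p = 0.00749, edgeR), and Sytl3 from 51.2 to 63.3 CPM to 30.4 and 33.3 CPM (-0.80, SE 0.116, adjusted p = 0.00742). Both were lower in each KO library than in any WT library, yet stayed well above absence. Rab27a, the small GTPase that these proteins bind, was at 240 to 271 CPM in WT mice and at 286 and 150 CPM in KO, so the KO libraries lay on opposite sides of WT. The BTBD family had 1 of 13 lower (Btbd16) and 2 higher (Btbd7 and Abtb2), but all 3 calls were lost without WT 1, 2 or 3 (adjusted p from 0.0559 to 0.141, edgeR) and limma-voom called none of the family. Btbd1 showed the same split as Rab27a, at 89.0 to 94.0 CPM in WT mice, 66.8 in KO 1 and 114 in KO 2.

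The band 4.1 and ERM proteins, which tie membrane proteins to the actin cortex, had 3 of 13 tested relatives lower and 4 higher, and all 7 calls held whichever library was left out. Epb41l4b, the closest paralogue of Epb41l4a by name, was read at 182, 187, 178 and 219 CPM in WT mice and at 10.01 and 21.8 CPM in KO (-3.57, SE 0.347, adjusted p = 0.00223, edgeR). It lost most of its signal without reaching the KO limit. In the other direction moesin (Msn) went from 334 to 356 CPM in WT mice to 764 and 874 CPM in KO (1.28, SE 0.0771, adjusted p = 0.000544), and Frmd4b from 1.18 to 2.55 CPM to 50.3 and 54.0 CPM (4.95, SE 0.330, adjusted p = 0.00076). Of the F-BAR and actin adaptors beside Fnbp1l and Afap1l1, edgeR called none of 15 lower (1 at an unadjusted p under 0.05, and none by DESeq2 or limma-voom) and 4 higher. Of the 4 (Pacsin2, Afap1, Pstpip1 and Pacsin1), only the call of Pacsin2 held whichever library was left out; without WT 1, 2 or 3 the adjusted p was 0.0515 to 0.0554 for Afap1, 0.0916 to 0.113 for Pstpip1 and 0.132 to 0.137 for Pacsin1, which was also lost without KO 2 (0.235). limma-voom called 1 of the 15 higher. Pacsin2 rose from 17.4 to 21.6 CPM in WT mice to 80.3 and 42.9 CPM in KO (1.60, SE 0.243, adjusted p = 0.00846). Fnbp1, the nearest relative of Fnbp1l by name, gave 164 to 190 CPM in WT mice and 172 and 164 CPM in KO (-0.05, SE 0.0669).

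Jup was set beside the other catenins and the TCF/LEF factors, a group chosen after Jup was known to be a member. Of 7 tested, Tcf7 itself and Tcf7l2 were called lower and Lef1 and Ctnnd1 higher. Ctnnb1, the gene of β-catenin, stood at 382 to 449 CPM in WT mice and 469 and 437 CPM in KO (0.14, SE 0.0881, adjusted p = 0.281, edgeR). Ctnna1, α-catenin, was at 32.1 to 40.4 CPM in WT mice, 5.87 CPM in KO 1 and 33.4 CPM in KO 2. Tcf7l2, another TCF/LEF factor, went from 7.63, 9.70, 9.23 and 10.3 CPM in WT mice to 0.715 and 2.12 CPM in KO (-2.69, SE 0.455, adjusted p = 0.0119, and 0.0515 without WT 2). Lef1, the gene of LEF-1, another TCF/LEF factor of developing T cells, rose from 274, 281, 293 and 213 CPM in WT mice to 858 and 884 CPM in KO (1.82, SE 0.0941, adjusted p = 0.000402). Ctnnd1, p120-catenin, went from 4.20, 4.34, 4.79 and 2.27 CPM to 117 and 25.1 CPM (3.84, SE 0.728, adjusted p = 0.0163, but 0.0533 to 0.0597 without WT 1, 2 or 3). The group thus held genes that went each way, with Lef1 above every WT library in both KO mice.

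Pla2g4a and Ptgs2 encode consecutive enzymes of one pathway and lie close together on chromosome 1. Pla2g4a (149829618 to 149961290) encodes cytosolic phospholipase A2α, which releases arachidonic acid from membranes. Ptgs2 (150100031 to 150108234) encodes cyclooxygenase-2, which turns that acid into the precursor of all prostaglandins. The genes are 138741 bases apart, and no other pair of the 23 lay as close. Pla2g4a was read at 16.3, 14.8, 17.2 and 13.7 CPM in WT mice, at no count in KO 1 and at 0.146 CPM in KO 2. WT exceeded KO 259-fold, with an exact 95% interval of 71.7 to 2143 that rests on 2 KO counts. Ptgs2 was at 9.48, 10.5, 7.22 and 9.90 CPM in WT mice and at no count in KO, at least 103-fold lower. The antisense gene Ptgs2os beside it had no count in any library.

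Of the other genes of prostaglandin synthesis and reception, 10 were tested, of which 3 were lower and 3 higher; only the lower calls of Alox5ap and Ptger3 held whichever library was left out. Alox5ap, the 5-lipoxygenase activating protein of the leukotriene branch, fell from 14.2 to 17.2 CPM in WT mice to 4.03 and 5.41 CPM in KO (-1.70, SE 0.209, adjusted p = 0.00445, edgeR). Ptger3, a prostaglandin E2 receptor, was at 0.840, 0.886, 0.811 and 1.63 CPM in WT mice and had no count in KO (adjusted p = 0.00713). The third, Ptges3, went from 48.3 to 53.8 CPM to 37.0 and 30.8 CPM (-0.58, SE 0.111, adjusted p = 0.0168, but 0.0630 to 0.0684 without WT 1, 2 or 3). Ptgs1, the constitutive cyclooxygenase, held at most 0.048 CPM in any library, so Ptgs2 was the cyclooxygenase gene read in WT. Terminal synthases were sparse as well, Ptges2 (24.8 CPM at most in WT) and Ptges3 being the exceptions. Ptger4 (56.5 to 62.0 CPM in WT, 23.1 and 47.2 in KO, adjusted p = 0.0788) and Ptger1 (88.0 to 94.8 CPM in WT, 113 and 112 in KO, adjusted p = 0.0249, but 0.0880 to 0.0996 without WT 1, 2 or 3) were among the receptors read in every library.

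A further 4 genes belong to metabolism, transport and protein turnover. Ak4 (chromosome 4, 101416478 to 101467771), a mitochondrial adenylate kinase, was read at 8.98, 9.49, 9.50 and 7.31 CPM in WT mice and at none in KO, at least 97.5-fold lower. Slc36a4 (chromosome 9, 15709738 to 15742388), a transporter of neutral amino acids, was the steadiest in WT at 6.58, 6.71, 6.84 and 6.77 CPM. It kept 1 count in KO 1 and 2 in KO 2, a WT excess of 74.3-fold (exact 95% interval 25.4 to 361). Svip (chromosome 7, 51997161 to 52006018) encodes a small inhibitor of p97-dependent degradation at the endoplasmic reticulum and gave 8.11, 6.96, 8.03 and 8.19 CPM in WT. Only KO 2 had reads for it, at 0.219 CPM. Uchl1 (chromosome 5, 66676121 to 66687234), a ubiquitin C-terminal hydrolase abundant in neurons, gave 5.38, 5.86, 5.45 and 5.64 CPM in WT mice and none in KO.

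Tested relatives of these 4 genes were mostly not called, and others were hardly read in any library. Among 8 other adenylate and nucleoside monophosphate kinases tested, edgeR called none lower (1 at an unadjusted p under 0.05, and none by DESeq2 or limma-voom) and Cmpk2 higher, from 5.25 to 7.15 CPM in WT mice to 14.9 and 54.6 CPM in KO (2.48, SE 0.322, adjusted p = 0.00528, edgeR). The mitochondrial paralogue Ak3 (95.9 to 101 CPM in WT) was not called, but its KO libraries lay on either side of WT, at 70.8 and 137 CPM. It was called lower without KO 2 (-0.43) and higher without KO 1 (0.53) or WT 4 (0.51). The 4 adenylate kinase genes not tested, Ak1, Ak5, Ak8 and Ak9, held at most 0.127 CPM in any library. Of the amino acid transporters beside Slc36a4, Slc36a1 went from 9.96, 11.8, 10.7 and 11.03 CPM in WT mice to 24.8 and 16.6 CPM in KO (0.87, SE 0.173, adjusted p = 0.0179, but 0.0537 to 0.0691 without WT 1, 2 or 3), while Slc36a2 and Slc36a3 held at most 0.219 CPM in any library. None of 6 tested genes of p97 and endoplasmic reticulum degradation was called by edgeR, DESeq2 or limma-voom, and 1 had an unadjusted p under 0.05. Vcp, which encodes p97, was at 136 to 148 CPM in WT mice and 176 and 152 CPM in KO (0.21, SE 0.0877). Neither Uchl3 (0.18, SE 0.105) nor Uchl5 (-0.35, SE 0.108) nor Bap1 (-0.09, SE 0.0791) was called by edgeR. DESeq2 called 1 of these 3 lower, limma-voom called none, and 1 had an unadjusted p under 0.05.

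Gab2 and Ltbp3 act in receptor signalling. Gab2 (chromosome 7, 97081751 to 97308951), a scaffold that recruits phosphatidylinositol 3-kinase and SHP2 to activated receptors, was read at 5.45, 5.78, 5.79 and 8.37 CPM in WT. The WT 4 value stands apart from the other WT values, and neither KO library had a count. Ltbp3 (chromosome 19, 5740900 to 5758536) encodes a protein that binds latent TGF-β for secretion and deposition in matrix. It was at 6.48, 6.58, 7.14 and 7.63 CPM in WT mice and at none in KO, at least 76.7-fold lower.

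Their paralogues Gab1 and Ltbp4 were lower too, though both calls were lost when WT 1, 2 or 3 was left out. Another paralogue, Gab3, was not called (1.56 to 2.97 CPM in WT mice, 0.817 and 3.29 CPM in KO, log2 fold change -0.12, SE 0.563). Gab1 went from 10.01, 10.7, 8.998 and 8.97 CPM in WT mice to no count in KO 1 and 1.02 CPM in KO 2 (adjusted p = 0.0209, edgeR, but 0.0732 to 0.0823 without WT 1, 2 or 3). Ltbp4 went from 2.95 to 4.56 CPM to 0.153 and 0.951 CPM (adjusted p = 0.0299, but 0.0721 to 0.0978 without WT 1, 2 or 3). In both, each KO library lay under every WT library. Of 15 tested docking and adaptor genes around Gab2, 2 were lower and 4 higher, and none of the lower and 3 of the higher calls held whichever library was left out, among them Dok2 (37.3 to 39.9 CPM in WT, 73.0 and 71.6 in KO, log2 fold change 0.94, SE 0.0708, adjusted p = 0.000992) and Irs2 (7.63 to 9.45 CPM, then 20.6 and 19.4, adjusted p = 0.00393). Of 16 tested genes of TGF-β latency and signalling, 5 were lower and 7 higher, of which 1 (Tgfbr1) and 4 held whichever library was left out. Tgfb3, one of the ligands, rose from 2.82, 2.86, 2.91 and 3.80 CPM in WT mice to 29.9 and 35.6 CPM in KO (3.41, SE 0.180, adjusted p = 0.000424). The receptor gene Tgfbr1 fell from 156 to 232 CPM to 92.8 and 137 CPM (-0.69, SE 0.0707, adjusted p = 0.0024), and the signal transducer Smad3 rose from 133 to 142 CPM to 250 and 359 CPM (1.22, SE 0.115, adjusted p = 0.00203).

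**Figure D3:**
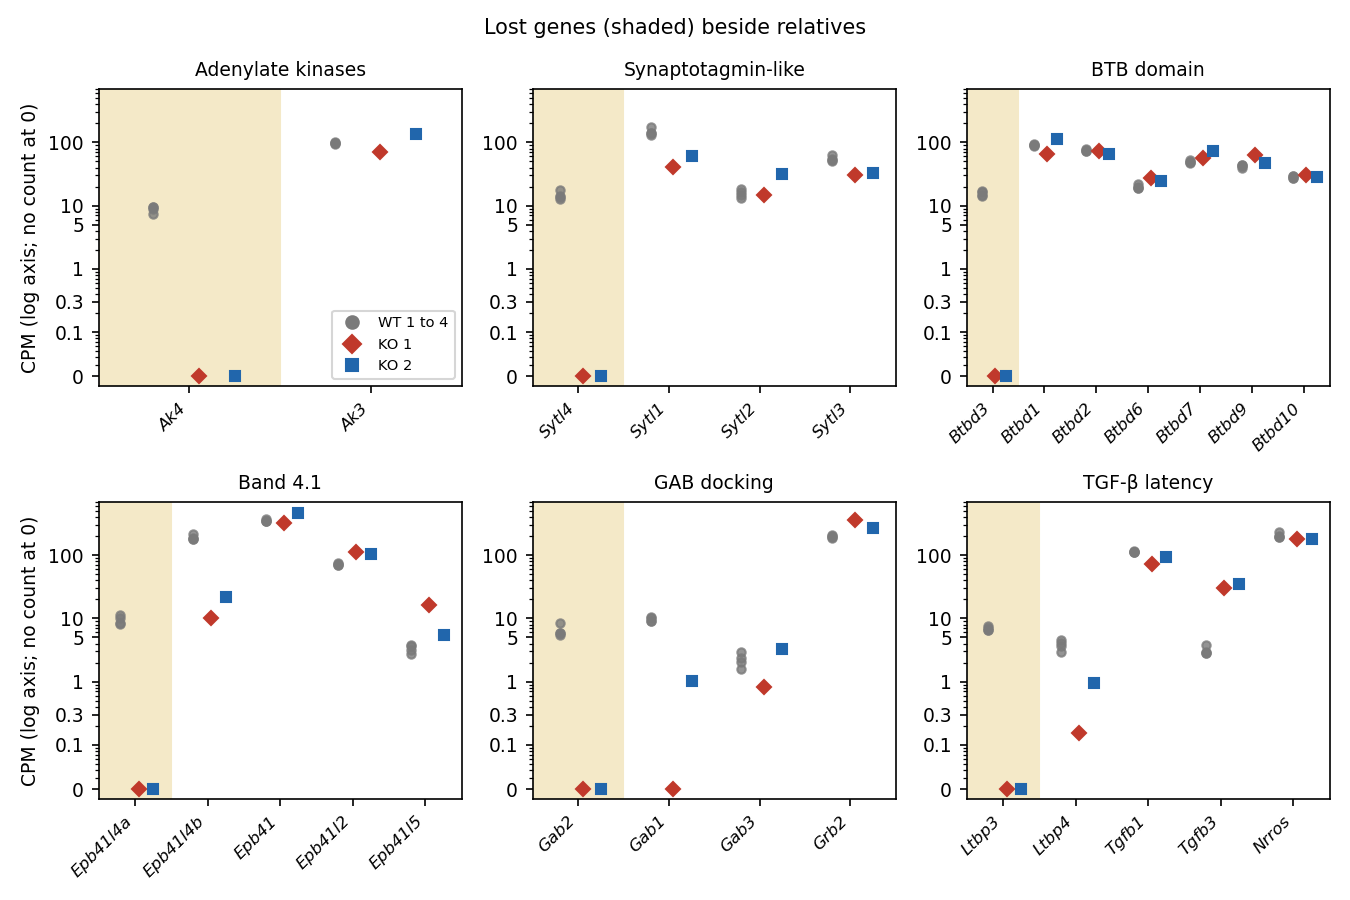
CPM on a log axis (no count drawn at 0) of 6 of the 23 genes, each leading a panel on a shaded ground, and of relatives in the same family or pathway, with grey circles for WT 1 to 4, red diamonds for KO 1 and blue squares for KO 2. The shaded genes have both KO libraries at 0, whereas most relatives drawn keep KO points near their WT points. Of those drawn, Epb41l4b, Gab1, Ltbp4 and, less far, Sytl1 and Sytl3 lie lower in KO, and Tgfb3 and Epb41l5 lie higher. Not every relative is drawn. Btbd16 (1.27 to 2.09 CPM in WT, no count and 0.146 CPM in KO) and Btbd11 (4.39 to 5.95 CPM in WT, 1.12 and 24.9 CPM in KO) are left out.

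Hes5, Zc3h12c and Msantd3 encode regulators of transcription or RNA or proteins with a DNA-binding type of domain. Hes5 (chromosome 4, 154960626 to 154962372), a basic helix-loop-helix repressor and a known target of Notch signalling, was at 6.12, 5.78, 5.33 and 7.59 CPM in WT mice, at no count in KO 1 and at 0.293 CPM in KO 2. WT exceeded KO 51.8-fold (exact 95% interval 20.1 to 191). Zc3h12c (chromosome 9, 52109569 to 52168730), of the Regnase family of RNA-degrading zinc-finger proteins, gave 6.41, 5.82, 6.80 and 6.92 CPM in WT, no count in KO 1 and 0.219 CPM in KO 2. Msantd3 (chromosome 4, 48539854 to 48565892), which has a Myb/SANT-like domain, was at 7.01, 6.33, 5.64 and 5.71 CPM in WT mice and at none in KO. The rule itself places each KO library more than 10-fold under the lowest WT library in all 3.

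Of 5 tested relatives of Hes5 among HES and HEY repressors, Hes1 and Hey1 were called lower and none higher by edgeR (2 at an unadjusted p under 0.05, and 1 each by DESeq2 and limma-voom). The call of Hey1 (adjusted p = 0.0209) was lost without WT 1 or WT 2 (0.0789 and 0.0712). Hes1 fell from 224 to 276 CPM in WT mice to 76.5 and 84.8 CPM in KO (-1.53, SE 0.0998, adjusted p = 0.000703, edgeR). Hes6 was at 75.8 to 85.5 CPM in WT mice and 89.2 and 72.8 CPM in KO. Of 5 tested genes of the Notch pathway, Notch3 was called lower and Dtx1 higher. The Notch receptor genes were still read in KO: Notch1 stood at 2161 to 2495 CPM in WT mice and 2966 and 2179 CPM in KO (0.12, SE 0.0768), and Notch3 at 1168 to 1420 CPM and 787 and 715 CPM (-0.75, SE 0.0679, adjusted p = 0.00165). Rbpj, which encodes the DNA-binding partner of cleaved Notch, was at 63.1 to 72.9 CPM in WT mice and 61.6 and 70.9 CPM in KO. Dtx1, which encodes a Deltex ubiquitin ligase and is a known Notch target, rose from 248, 239, 233 and 250 CPM in WT mice to 920 and 792 CPM in KO (1.81, SE 0.0691, adjusted p = 0.000162). The known Notch targets Hes1 and Dtx1 therefore lay on opposite sides of WT in both KO libraries. None of the 3 other Zc3h12 genes was called by edgeR, DESeq2 or limma-voom, and 0 had an unadjusted p under 0.05; Zc3h12b was at 3.65 to 5.79 CPM in WT mice, 0.153 CPM in KO 1 and 6.51 CPM in KO 2.

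A last group of 4 genes holds 2 long noncoding RNAs, an olfactory receptor gene and a gene of little known function. Mira (chromosome 6, 52214491 to 52215288), a noncoding RNA of the Hoxa cluster, was at 10.2, 11.3, 11.3 and 9.36 CPM in WT mice and at 1 count in KO 2. Per length it was the highest of the 23, at 13.2 RPKM in WT. It lies between Hoxa6 and Hoxa7, 335 bases from Hoxa7, which met both limits and was dropped by its symbol. By annotated bounds Hoxa3, whose span takes in Hoxa4, Hoxa5 and Hoxa6, is the nearest tested gene on the other side, at 1424 bases. Hoxa7 itself was at 16.2, 13.7, 14.6 and 12.3 CPM in WT mice and at 0.0731 CPM in KO 2. Hoxa5 (3.76 to 4.39 CPM in WT), Hoxa4 (1.73 to 2.28) and Hoxa3 (1.39 to 1.77) were called lower, with at most 1 KO count each. Hoxa6 (0.958 to 1.22 CPM in WT, 1 count in KO 2) was also called lower (adjusted p = 0.0112, edgeR). Its call was lost without WT 1, 2 or 3 (adjusted p 0.0519 to 0.0553, edgeR). Hoxa9, Hoxa10 and Hoxa11 held at most 0.216 CPM in any library. The library kit does not mark strand and Mira is short, so its reads cannot be told from those of an overlapping transcript.

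Gm10384 (chromosome 15, 36870500 to 36880041), the other noncoding RNA, was at 8.81, 9.28, 9.73 and 8.90 CPM in WT mice and at none in KO. Olfr1507 (chromosome 14, 52489935 to 52495695) lies between Trav1 (52427967 to 52428876) and Trav2, variable segments of the T-cell receptor α locus. It was at 6.31, 7.30, 7.07 and 6.49 CPM in WT mice and at none in KO. Its olfactory neighbours Olfr1508 and Olfr1509 stayed at or under 0.366 CPM in all libraries, and the first variable segment tested, Trav2 at 71598 bases, went from 0.624 to 1.21 CPM to no count and 0.219 CPM (adjusted p = 0.0749, edgeR). Olfr1507 was therefore the olfactory gene of this stretch that was read in WT. Fam135a (chromosome 1, 24010758 to 24100484) was at 6.34, 5.23, 5.37 and 6.70 CPM in WT mice and at none in KO, and had the lowest level per length at 0.914 RPKM. Its paralogue Fam135b held 0.024 CPM in 1 WT library and no count in the others.

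Counted over the 8 family and pathway lists, 131 relatives were found and 103 were tested, of which 17 (16.5%) were called lower, 27 (26.2%) higher and 59 neither. Their median log2 fold change was 0.01, where all 13294 genes tested had 16.5% lower, 14.1% higher and a median of -0.04. The share lower was thus equal to the background. These counts moved with the libraries used: leaving out 1 library gave 8 to 39 lower and 13 to 45 higher, the fewest without WT 1, 2 or 3, and limma-voom with weights per genotype gave 6 and 14. A wider comparison by shared symbol stem tested 267 genes, with 59 lower (22.1%), 38 higher (14.2%) and a median of -0.1. Leaving out the broad stem Slc, it tested 51 genes, with 10 lower (19.6%), 6 higher (11.8%) and a median of -0.05. Both shares lower stood above the 16.5% of all genes tested, and the difference was not tested.

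Tested genes next to the 23 were compared to see how far the loss reached along the chromosome. Genes that themselves passed both limits (the 23 and the 4 dropped by symbol) were not counted as neighbours, which left out Ptgs2 beside Pla2g4a and Hoxa7 beside Mira. The nearest other tested gene on each side within 250 kb gave 30 neighbours of 20 of the genes, with 7 called lower, 3 higher and 20 neither. The median of their log2 fold changes was -0.16. With Hoxa7 counted there were 31 neighbours, with 8 lower (25.8%) and 3 higher (9.68%). Without Hoxa7 the share lower was 23.3%. Of all genes tested 16.5% were lower and 14.1% higher. In both versions the share lower stood above that of all genes and the share higher under it. These differences were not tested. Several neighbours at very short distance kept their reads in both KO libraries. Epb41l4aos lies 338 bases from Epb41l4a and was at 8.88, 12.4, 9.38 and 11.3 CPM in WT mice and 10.8 and 11.1 CPM in KO (0.08, SE 0.195). Gas2, 2156 bases from Svip, was at 6.41 to 7.07 CPM in WT mice and 6.13 and 7.24 CPM in KO (0.05, SE 0.176). These neighbours had levels within or on both sides of the WT range while the gene beside them had no or hardly any KO count.

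Of 9 neighbours within 10 kb, Hoxa3 beside Mira and Sdhaf4 beside Fam135a were called lower (22.2%, against 16.5% of all genes tested). None of the 9 was called higher by edgeR (1 at an unadjusted p under 0.05, and none by DESeq2 or limma-voom). Hoxa7, 335 bases from Mira, would make these 10 neighbours with 3 lower. Sdhaf4 went from 11.2 to 12.2 CPM in WT mice to 4.75 and 6.73 CPM in KO (-0.97, SE 0.184, adjusted p = 0.0155, but 0.0574 to 0.0745 without WT 1, 2 or 3). Farther out, Pde5a, the cGMP phosphodiesterase, lies 109444 bases from Fnbp1l and fell from 25.3 to 33.3 CPM in WT mice to 3.17 and 5.92 CPM in KO (-2.62, SE 0.179, adjusted p = 0.000784). Tnfrsf14, 32006 bases from Hes5, fell from 17.7 to 21.9 CPM to 9.597 and 10.02 CPM (-0.98, SE 0.145, adjusted p = 0.00745). Leaving out 1 library gave 3 to 14 neighbours lower and 0 to 10 higher, the fewest without WT 1, 2 or 3, and limma-voom with weights per genotype gave 2 and 0.

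**Figure D4:**
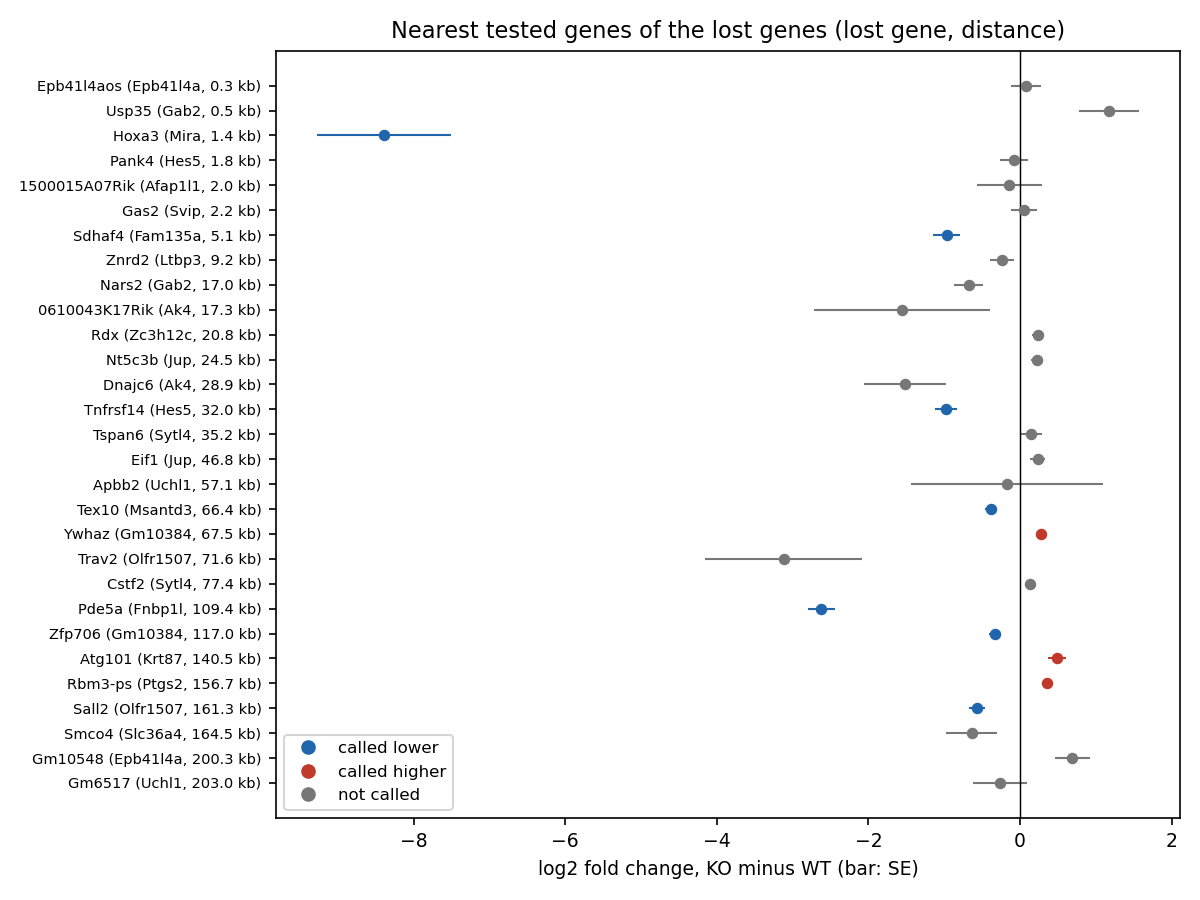
Log2 fold change (KO minus WT, bar: SE) of 29 of the 30 nearest tested genes (without those that passed both limits) beside the 23 genes within 250 kb, ordered by distance from nearest to farthest, with the gene of the 23 and the distance in brackets; blue marks genes called lower, red called higher and grey not called. Most neighbours, the closest included, lie near 0, and Hoxa3 beside Mira and Pde5a beside Fnbp1l lie far to the left.

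Promoter windows (250 bases before to 50 after an annotated start, RefSeq, GRCm38.p6) were at hand for 16 of the 23 genes, in 25 windows. They were searched on both strands for CTTTGNT, with overlapping matches counted. This is a loose form of the TCF/LEF core, in which N is any base. It was found for 2 of 16 genes, Sytl4 and Zc3h12c (12.5%, exact 95% interval 1.55% to 38.4%). Of all 27025 genes with a window 20.9% held it, and of the 7800 expressed in WT 15.5% did. The shorter core CTTTG was in 68.8% of the 16, against 57.4% of all and 49.8% of the expressed genes, and neither CTTTGAT nor CTTTGTT was in any of the 16. The median number of CpG per window was 16, against 7 over all windows and 21 over those of expressed genes. A match or its absence describes these letters in this window only. The bases before the start are shown for both genes with the CTTTGNT core, with the core on either strand in capitals, for Sytl4 on the minus strand of chrX:133981813-133982062, where matches begin 196 and 100 bases before the start, and for Zc3h12c on the minus strand of chr9:52149364-52149613, before a start inside the gene, where the match begins 36 bases before it.
Sytl4: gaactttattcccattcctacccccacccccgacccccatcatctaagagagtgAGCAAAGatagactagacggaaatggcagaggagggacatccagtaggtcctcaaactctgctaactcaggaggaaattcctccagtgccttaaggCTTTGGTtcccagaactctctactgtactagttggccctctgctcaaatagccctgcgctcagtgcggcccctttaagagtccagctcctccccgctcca
Zc3h12c: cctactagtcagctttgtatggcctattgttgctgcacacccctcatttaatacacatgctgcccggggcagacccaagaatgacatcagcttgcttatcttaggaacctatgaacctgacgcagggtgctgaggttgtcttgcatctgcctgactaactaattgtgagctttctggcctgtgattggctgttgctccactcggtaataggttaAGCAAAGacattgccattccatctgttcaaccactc

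Because Hes5 is a known Notch target, its window was also searched for GTGGGAA, the core bound by RBPJ, a motif added after Hes5 was seen among the genes. Hes5 alone of the 16 held it (6.25%, against 7.25% of all genes), at 226 and 83 bases before the start. That start and the 250 bases before it lie inside the bounds given above for Hes5, which begin at 154960626. These bases, plus strand of chr4:154960673-154960922, are shown with this core on either strand in capitals.
Hes5: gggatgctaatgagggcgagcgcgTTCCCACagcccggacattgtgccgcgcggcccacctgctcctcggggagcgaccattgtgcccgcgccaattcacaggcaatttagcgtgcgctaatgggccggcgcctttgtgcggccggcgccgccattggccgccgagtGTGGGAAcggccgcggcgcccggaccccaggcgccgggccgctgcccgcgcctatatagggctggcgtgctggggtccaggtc

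Markers of other cells that the gate could hold were read beside the 23 genes. Early progenitor (DN1 and DN2) markers summed to 88.0 to 96.5 CPM in WT mice, 2.14 CPM in KO 1 and 48.4 CPM in KO 2. Of the 12, 4 were not tested and 5 were under 1 CPM in every library. Gfi1b alone was called lower and Lmo2 alone higher, where 16.5% and 14.1% of all genes tested were. Gfi1b was at 0.355 to 0.695 CPM in WT mice and had no count in KO (adjusted p = 0.0174, edgeR). Without WT 1, 2 or 3 its adjusted p was 0.0731 to 0.0754. Most of the sum was Kit, at 61.5 to 68.9 CPM in WT mice and 1.07 and 22.0 CPM in KO. Kit was not called by edgeR (adjusted p = 0.0684) but was called lower by limma-voom (0.00874). The 8 myeloid markers summed to 17.35 to 20 CPM in WT mice and 5.46 and 9.36 CPM in KO, with Lyz2 at 16.7 to 18.6 CPM in WT mice and 0.153 and 1.17 CPM in KO and 6 of the 8 under 1 CPM in every library. The other, Itgam, went the opposite way, from 0.624, 0.759, 0.618 and 0.497 CPM in WT mice to 4.80 and 6.73 CPM in KO (3.33, SE 0.269, adjusted p = 0.00121, edgeR). Of 6 thymic epithelial markers, Krt5, Krt14 and Foxn1 had no count in any library, and Epcam, at 149 to 160 CPM in WT mice and 45.9 and 51.9 CPM in KO, made up nearly the whole sum. B-cell markers ran the other way in KO 2, at 168 CPM against 42.8 to 51.6 CPM in WT mice and 15.1 CPM in KO 1. Dendritic cell markers never exceeded 0.851 CPM in sum. The part of these cells in the loss of the 23 genes was not tested.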

How the data were processed

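RNA was measured in 6 libraries of sorted DN3 thymocytes, 4 WT and 2 KO, prepared with a SMART-Seq v4 kit, per the labels' protocols. The authors deposited raw read counts by Entrez identifier. The submitters' processing notes name featureCounts and the build mm10. For the aligner and strand setting, the sources used here give nothing. The series table and the 6 single-library tables hold the same values, and every count column was mapped to a sample.

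CPM is the count over the column total. RefSeq GRCm38.p6, the same assembly as mm10, gave symbols for 25275 of 26332 identifiers, GENCODE for 18, and 1039 had none. It also gave coordinates, lengths and promoter windows. edgeR 4.0.16 (R 4.3.3) tested KO against WT over 13294 genes kept by filterByExpr (count minimum 10), with TMM scaling and an added term for sex (3 residual degrees of freedom). Calls used a Benjamini-Hochberg adjusted p under 0.05. An SE is the log2 fold change over the square root of F. Where the KO libraries hold no count, a fold is a lower bound against 3 counts over both, and otherwise a ratio of pooled counts with its exact 95% interval. Alternatives were limma 3.58.1 (voom), DESeq2 1.42.0, its size factors in edgeR, no filter, no sex term, a replicate block, other limits of the rule and leaving out each library. The scripts were tested on simulated data. Depth ranged from 13673860 to 41666797 counts, so 3 counts equal 0.072 CPM in WT 1 and 0.219 CPM in KO 2.

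The members of the set, the lists of relatives and the markers were chosen with earlier results of these data known, and the catenin, hydrolase, ZC3H12, SLC36, p97, HES, Notch and FAM135 groups and the RBPJ core after the members were seen. Genes named are the members, apart from a few genes of the set, its relatives and its neighbours that are not reported here, those at the limits, and called relatives and neighbours with the smallest p or highest WT level. Other relatives were named, after their values were seen, as paralogues or partners of a member.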

Additional observations from a re-analysis of the deposited data

Results flagged for a closer look

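Among 181 members, relatives and neighbours, 19 had 1 WT library far from the other 3, which chance gives for about 1 in 20 genes. WT 4, the only male of the 4, was that library in 14 of the 19.

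Of the 23 lost genes, Gab2 was set apart by WT 4 at 8.37 CPM (others 5.45 to 5.79) and Svip by WT 2 at 6.96 CPM (others 8.03 to 8.19). WT 4 was the high library for Smad7 (32.4 CPM), Notch1 (2495), Ptger3 (1.63), Tgfb3 (3.80), Hes6 (85.5), Unc13d (161), Fchsd2 (60.9), Nrros (236) and Rbm3-ps (240.5 CPM). It was the low library for Tcf7 (2113 CPM), Rbpj (63.1), Tbxa2r (69.7) and Frs2 (51.2 CPM). WT 1 stood apart for Tgfb1 (115 CPM) and Tgfbr3 (29.7 CPM), WT 2 for Pstpip2 (0.59 CPM) and WT 3 for Pacsin1 (0.772 CPM).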

How the results depend on the processing

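On TMM-scaled CPM 23 genes met the rule, and 18 and 30 met it with KO limits of 0.2 and 0.5 CPM. A WT minimum of 3 CPM gave 44 genes and 10 CPM gave 4. Leaving out 1 library gave 23 to 94 genes, 36 without KO 1 and 94 without KO 2. Depth limits the KO side, where 0.3 CPM is 5.88 counts in KO 1 and 4.102 in KO 2.

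Genes called between KO and WT numbered 4076, with 1500 by limma-voom with weights per genotype and 1665 to 9473 when 1 library was left out. With sex in the model, leaving out WT 4 or KO 1 leaves the other as the lone male, whose value its own term fits, so KO 2 is then set against females alone. Without KO 2, KO 1 is set against WT 4. In these 3 fits the spread comes from WT libraries alone and KO is assumed to vary like WT. A replicate block in place of sex gave 748 calls with 1 residual degree of freedom; only numbers 1 and 2 are shared, their deviations correlated at -0.11 and 0.0328, and the numbers were not taken to pair the mice. Relatives called lower (17) and higher (27) became 6 and 14 by limma-voom and 5 and 5 with the replicate block, and ranged over 8 to 39 and 13 to 45 when 1 library was left out. Neighbours called lower (7) and higher (3) became 2 and 0 by limma-voom, 1 and 0 with the replicate block, and 3 to 14 and 0 to 10 when 1 library was left out. DESeq2 called 5 neighbours higher, and 4 were lower within 100 kb. Counting genes past both limits that were dropped by symbol as neighbours, a setting chosen after seeing the data, gave 8 lower and 3 higher. The motif share of 12.5% became 68.8% for CTTTG, 0% for CTTTGAT and 0% for CTTTGTT.

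Some genes without a call were called in the direction opposite to their fold change when 1 library was left out. The 6 such fits gave log2 fold changes of -0.43 to 0.53 for Ak3, -0.78 to 0.26 for Rab27a, -0.13 to 0.17 for Unc13d, -0.46 to 0.36 for Btbd1, -2.25 to 2.33 for Btbd11, -0.3 to 0.21 for Cdc42, -0.56 to 0.14 for Fcho1, -0.35 to 0.34 for Dck, -0.18 to 0.14 for Smad4, -1.38 to 0.48 for Smad7, -0.38 to 0.14 for Pik3r1, -0.49 to 0.33 for Frs2, -0.4 to 0.34 for Pank4, -0.88 to 0.74 for 1500015A07Rik and -9.24 to 1.25 for Apbb2. The cause was not tested beyond which library was left out.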
